A study of Mus musculus with 6 samples.

Results

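Transcript levels of 9 genes that restrain JAK-STAT signalling were followed in the mouse cell line IEC 4.1, labelled as intestinal epithelium, after interferon-gamma. They were the 7 suppressor of cytokine signalling genes Socs1 to Socs7, the tyrosine phosphatase gene Ptpn2 and the SUMO ligase gene Pias1, picked by gene symbol from the 14701 genes that each table lists. RNA was sequenced from 6 samples of this single line, for which no genetic change is given. The 3 control samples (replicates 2, 3 and 4) received no interferon, and the 3 treated samples (replicates 1, 2 and 4) received interferon-gamma at 10 ng/ml for 6 h. The labels do not say whether replicates came from separate cultures, so the p-values measure only the spread between these samples, which may be technical.

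JAK kinases sit on cytokine receptors and phosphorylate STAT proteins, which then enter the nucleus and switch on genes, among them several Socs genes. SOCS proteins bind the activated receptor or kinase through an SH2 domain and recruit a ubiquitin ligase through a short SOCS box, and SOCS1 and SOCS3 also block the kinase directly. Ptpn2 encodes a phosphatase (also called TC-PTP) that removes phosphate from JAK1, JAK3 and STAT3, among others, and Pias1 encodes a nuclear protein of the PIAS family, named as protein inhibitors of activated STAT. In the gut epithelium, SOCS1 is known for curbing the response to interferon-gamma and SOCS3 for curbing signals that reach STAT3 through the receptor subunit gp130.

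Libraries held 17490689 to 18678543 estimated counts, and no pair of replicates agreed within sampling noise. Of the 11423 genes that passed a filter on low counts, 38.1% differed between the groups at an adjusted p under 0.05 (edgeR's quasi-likelihood test with Benjamini-Hochberg adjustment), 19.9% being higher and 18.1% lower after interferon-gamma. With scaling by the trimmed mean of M values (TMM), 52.4% of the calls were rises, against 38.6% with upper-quartile scaling, 34.5% on total counts and 28.6% in a limma fit of log2(TPM + 1). TPM, the deposited level scaled for gene length and library size, shifted the median gene by −0.09 on the log2 scale, against 0.01 with TMM. Marker genes went against the epithelial label. Of 12 epithelial markers 8 had a row, with summed levels of 87.7 to 95.9 CPM (counts scaled for effective library size) in controls and 87.9 to 96.9 in treated libraries. Nearly all of that was Tjp1 (tight junction protein ZO-1), and the other 7, with Cdh1, Vil1 and the keratins among them, stayed at or below 0.533 CPM. Epcam, Cdx2, Cldn3 and Cldn7 had no row here. The 9 mesenchymal markers with a row summed to 5618 to 5906 CPM in controls and 5544 to 5919 after interferon-gamma. These sums overlapped, whereas on total counts the treated sums (5385 to 5757) lay below those of controls (5767 to 5998). Of the 9 markers, 2 rose (Vim and Dcn) and 5 fell (Col1a1, Col1a2, Col3a1, Pdgfra and Pdgfrb) in the edgeR test. Vim and Col1a1 made up most of the mesenchymal sums. Lum stayed at or below 0.22 CPM, and the mesenchymal marker Thy1 had no row. The 5 leukocyte markers with a row summed to 22.9 to 26.2 and 20.5 to 22.0 CPM, mostly Cd14, with the pan-leukocyte gene Ptprc at or below 0.0533 CPM. The part of these markers in the results was not tested. In bulk RNA, fewer cells of a type and less RNA per cell cannot be told apart.

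All 9 genes had a row and all 9 passed the filter on low counts. After interferon-gamma 5 of them rose (Socs1, Socs2, Socs3, Ptpn2 and Pias1), 1 fell (Socs5), and Socs4, Socs6 and Socs7 did not pass the test. That is 6 of 9 called, where 38.1% of all genes tested were called. The rises of Socs1 and Socs3 were about 8-fold each, and those of Ptpn2 and Pias1 were under 1.2-fold. Rises of at least 4-fold made up 1.99% of the genes tested and included 2 of the 9 genes, while called rises under 2-fold made up 15.9% and again included 2 of the 9. The median log2 change over the 9 was 0.18, beside 0.01 over all genes tested. The estimated counts of all 9 were whole numbers in every library, whereas 6.8% to 7.37% of values per library were not whole.

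Promoter sequence is shown for the genes with the largest rises, because the DNA elements through which interferon-gamma acts are short and can be searched for by their letters. Windows of 300 bases, from 250 before to 50 after each RefSeq start, were available for 4 of the 9 genes (Socs1, Socs3, Socs4 and Pias1), and for Cish and Irf1 as references. They are given 5′ to 3′ on the gene's own strand in build GRCm38.p6, with matches in capitals and positions counted from the start site. Each of 3 patterns was searched on both strands. The gamma-activated site, which STAT dimers bind, was TTCNNNGAA. The wider STAT6-type site has the same half-sites, TTC and GAA, with 4 bases of any kind between them. The core of the interferon-stimulated response element, which IRF proteins bind, was GAAA followed by 2 bases of any kind and GAAA again. The 250 bases before the Socs1 start (chr16:10785537-10785786, minus strand) hold 2 overlapping matches to the response element core, from −83 to −74 and from −77 to −68, and the 300-base window holds no match to either TTC pattern.
Socs1: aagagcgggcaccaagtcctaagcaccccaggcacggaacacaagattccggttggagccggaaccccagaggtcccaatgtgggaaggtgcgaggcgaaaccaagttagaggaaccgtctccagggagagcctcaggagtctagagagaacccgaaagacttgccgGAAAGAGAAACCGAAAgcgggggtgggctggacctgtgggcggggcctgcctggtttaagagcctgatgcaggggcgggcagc
The Socs3, Irf1 and Cish windows each hold a match to TTCNNNGAA, and the match is shown with a few bases on either side for comparison of the half-sites (Socs3 at chr11:117969504-117969528 on the minus strand, Irf1 at chr11:53769916-53769942 on the plus strand, Cish at chr9:107296655-107296682 on the plus strand).
Socs3: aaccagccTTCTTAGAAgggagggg
Irf1: agcctgatTTCCCCGAAatgatgaggc
Cish: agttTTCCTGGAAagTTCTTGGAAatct
The Socs3 match lies at −154 to −146. The RefSeq start that sets this window lies upstream of the start of the coding transcript Socs3-201 (base 117969186 in GENCODE, minus strand). The whole window (bases 117969317 to 117969616) lies upstream of the Socs3-201 start and does not reach the bases next to it. The Irf1 match lies at −90 to −82 in the window of 1 of its 2 RefSeq starts, upstream of the start of transcript Irf1-201 (base 53770495 in GENCODE). The window of its other start holds no match to any of the 3 patterns. Cish, a SOCS family gene outside the 9 and the classical STAT5 target, holds 2 matches at +1 to +9 and +12 to +20, inside exon 1 of transcript Cish-201. The RefSeq start that sets the Cish window lies downstream of that transcript's own start, so it is not that transcript's promoter.

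Among all 32851 windows of that length, 8.3% hold the gamma-activated site pattern, 6.95% the STAT6-type pattern and 3.44% the response element core. The Socs4 and Pias1 windows hold no match to any of the 3 patterns. A match describes the letters of a window and does not show that a factor binds there.

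**Figure D1:**
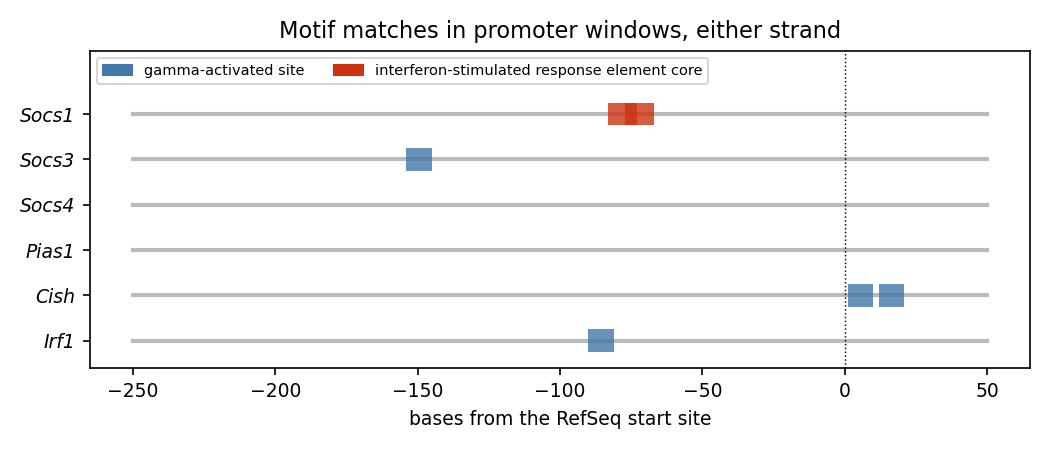
Positions of motif matches in 300-base windows around the RefSeq start of each gene with a window (x axis, bases from the start site, 1 line per gene). For Irf1 only the window with the match is drawn. Socs1 carries overlapping response element cores at −83 to −68, Socs3, Irf1 and Cish carry gamma-activated site matches, and Socs4 and Pias1 carry none of the 3 patterns.

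Socs1 (NCBI Gene 12703, chr16:10783808-10785536), whose protein blocks JAK1 and JAK2 and is the main SOCS brake on interferon-gamma, stood at 18.3, 24.2 and 21.6 TPM in control replicates 2, 3 and 4 and at 172.8, 159.8 and 161.0 TPM in treated replicates 1, 2 and 4. All treated libraries were far above all controls, with no overlap. Socs1 rose by 3.01 ± 0.092 on the log2 scale (SE, n = 3 per group; edgeR quasi-likelihood adjusted p = 8.34e-19), or 8.05-fold, with a 95% limma-voom interval of 7.21 to 9.03. It stayed called in all 18 alternative settings, at log2 changes of 2.90 to 3.07.

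Socs3 (NCBI Gene 12702, chr11:117966079-117970336), whose protein binds gp130 and blocks signals of the interleukin-6 family, stood at 14.4, 15.3 and 16.1 TPM in controls and at 122.8, 113.2 and 108.8 TPM after interferon-gamma. The groups lay wide apart, and the controls were close together. Socs3 rose by 3.03 ± 0.041 on the log2 scale (SE, n = 3 per group; edgeR quasi-likelihood adjusted p = 2.41e-20), or 8.16-fold (95% limma-voom interval 7.45 to 8.92), and was called in all 18 alternatives at 2.84 to 3.06. The intervals of the Socs1 and Socs3 folds overlapped. The ratio of Socs1 to Socs3 within a library, which no scaling between libraries affects, was 1.27, 1.59 and 1.35 in controls and 1.41, 1.41 and 1.48 in treated libraries. The treated ratios fell inside the range of the controls (two-sided exact permutation p = 0.8). The geometric mean of the ratio, taken from averaged log2 values, moved 1.03-fold. With 3 libraries against 3 that test cannot go below 0.1.

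Socs2 (NCBI Gene 216233, chr10:95383903-95417321), known as the brake on growth hormone signalling, was the least abundant of the 9 in both groups. It had 9, 4 and 12 counts in controls and 22, 23 and 27 after interferon-gamma, or 0.38, 0.20 and 0.54 TPM against 0.88, 0.91 and 1.17 TPM. Every treated library was above every control, at levels near 1 TPM or below. Socs2 rose by 1.60 ± 0.375 on the log2 scale (SE, n = 3 per group; edgeR quasi-likelihood adjusted p = 0.000535). The totals of 25 and 72 counts gave a depth-scaled ratio of 3.06, with an exact 95% interval of 1.92 to 5.04 that covers counting error only. It was called in all 18 alternatives, but its log2 change ran from 0.54 with a pseudocount of 1 on TPM to 1.94 without control replicate 4, and was 1.26 without control replicate 3.

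Socs4 to Socs7 form the part of the family whose cytokine targets are less well defined, with roles described mainly at the EGF and insulin receptors. Socs5 (NCBI Gene 56468, chr17:87107278-87137647), which can promote loss of the EGF receptor, stood at 61.0, 73.0 and 66.8 TPM in controls and at 56.7, 50.9 and 56.8 TPM after interferon-gamma. All treated libraries lay below all controls, by a small margin. Socs5 fell by 0.18 on the log2 scale (SE 0.055, n = 3 per group; edgeR quasi-likelihood adjusted p = 0.0122), a fold of 1.13 of control over treated. Among all genes tested, 17.1% were called falls under 2-fold. Leaving out control replicate 3 (adjusted p = 0.0604) or treated replicate 2 (0.0889) ended the call. Over the 18 alternatives the adjusted p ran from 0.000933 to 0.0889.

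Socs4 (chr14:47276920-47296102) stood at 10.2, 12.8 and 13.4 TPM in controls and at 10.95, 9.8 and 9.88 TPM after interferon-gamma. The groups overlapped, and the limma-voom interval of its fold ran from 0.795 to 1.05. Socs6 (chr18:88865169-88894364) stood at 16.0, 17.2 and 15.6 TPM in controls and 15.5, 14.0 and 16.0 TPM in treated libraries. Its groups overlapped too, with an interval of 0.924 to 1.11, and the sign of its log2 change, 0.02, flipped under upper-quartile scaling, on total counts and on TPM. Socs7 (chr11:97362292-97398542) stood at 10.0, 10.6 and 11.6 TPM in controls and 11.3, 10.7 and 10.1 TPM in treated libraries. Its groups overlapped, with an interval of 0.987 to 1.18 and a sign that flipped on TPM. Together the 3 intervals span folds of 0.795 to 1.18, and none of these genes was called in any of the 18 alternatives.

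Ptpn2 (NCBI Gene 19255, chr18:67665501-67724632) stood at 62.0, 64.1 and 64.5 TPM in controls and at 64.9, 66.5 and 74.7 TPM after interferon-gamma. All treated libraries were above all controls, treated replicate 1 only just. Ptpn2 rose by 0.18 ± 0.064 on the log2 scale (SE, n = 3 per group; edgeR quasi-likelihood adjusted p = 0.0223), or 1.14-fold (95% limma-voom interval 1.04 to 1.24). The call was lost without control replicate 3 (adjusted p = 0.0874), control replicate 4 (0.0968) or treated replicate 4 (0.108), with upper-quartile scaling (0.102), on total counts (0.157) and in the 3 TPM fits. It was kept in 10 of 18 alternatives, whose adjusted p ran from 0.0145 to 0.228.

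Pias1 (NCBI Gene 56469, chr9:62878366-62980879) stood at 31.1, 36.2 and 34.7 CPM in controls and at 39.8, 39.2 and 42.7 CPM after interferon-gamma. On CPM the groups did not overlap, while in TPM (11.9, 14.6 and 14.5 against 15.6, 14.5 and 15.7) treated replicate 2 fell within the controls. Pias1 rose by 0.26 ± 0.075 on the log2 scale (SE, n = 3 per group; edgeR quasi-likelihood adjusted p = 0.0054), or 1.19-fold (95% limma-voom interval 1.08 to 1.32). The call was lost in the 3 TPM fits, at adjusted p of 0.175 to 0.252, and kept in the other 15 alternatives. Over all 18 the adjusted p ran from 0.00223 to 0.252.

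**Figure D2:**
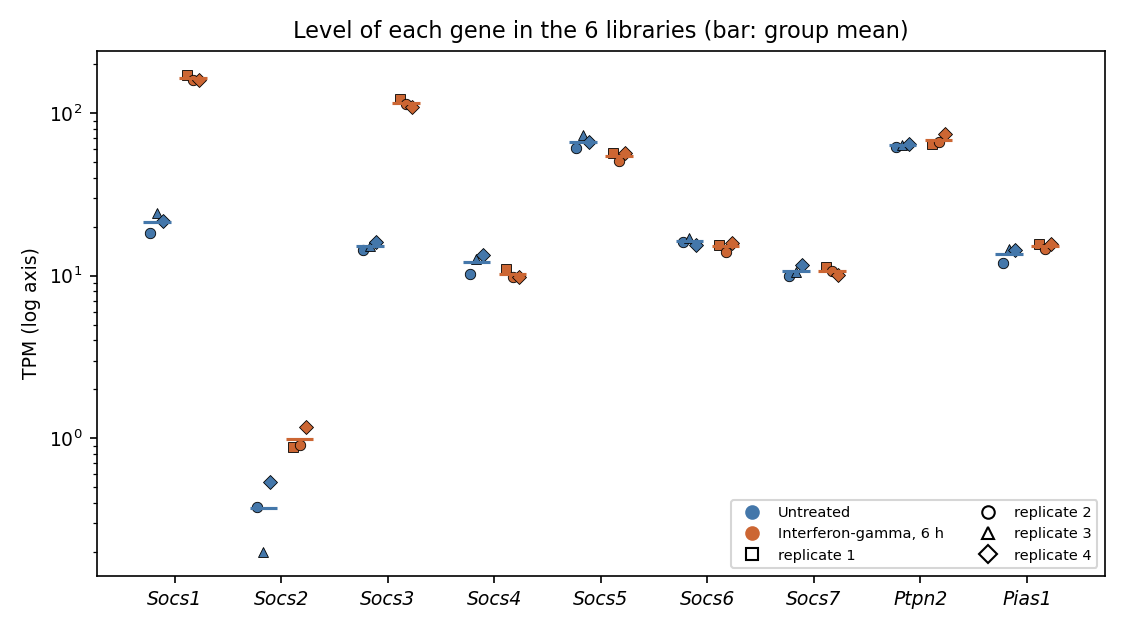
TPM of each of the 9 genes in every library (log axis; points are libraries, horizontal bars are group means, 3 per group). Socs1 and Socs3 stand above 100 TPM in every treated library and below 25 TPM in every control, while Socs4, Socs6 and Socs7 overlap between the groups.

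TPM is scaled for gene length and so allows the genes to be ranked by level. In controls Socs5 (mean 66.9 TPM) and Ptpn2 (63.5 TPM) led and overlapped each other, followed by Socs1 (21.4 TPM). Below them Socs6, Socs3, Pias1, Socs4 and Socs7 ran from 16.3 down to 10.7 TPM with each neighbour overlapping the next, and Socs2 was last at 0.373 TPM. After interferon-gamma the order was Socs1 (164.5 TPM), Socs3 (114.9 TPM), Ptpn2 (68.7 TPM) and Socs5 (54.8 TPM), with no overlap between these neighbours. Pias1 and Socs6 (15.3 and 15.2 TPM) overlapped, as did Socs7 and Socs4 (10.7 and 10.2 TPM), and Socs2 stayed last at 0.987 TPM. Socs1 thus moved from the third place to the first, and Socs3 from the fifth to the second.

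The summed TPM of the SOCS family, Socs1 to Socs7 with Cish, was 130.8, 153.5 and 146.2 in controls and 392.6, 360.9 and 364.9 after interferon-gamma. Socs5 made up 45.7% to 47.5% of that sum in controls and 14.1% to 15.6% in treated libraries. Socs1 went from 14.0% to 15.8% in controls to 44% to 44.3% in treated libraries, and Socs3 from 9.93% to 11% in controls to 29.8% to 31.4%. Together Socs1 and Socs3 held 25% to 25.8% of family transcripts in controls and 74.0% to 75.6% after interferon-gamma. Socs5 itself went from a mean of 66.9 TPM in controls to 54.8 TPM in treated libraries, beside a 1.13-fold difference in the edgeR fit with TMM.

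**Figure D3:**
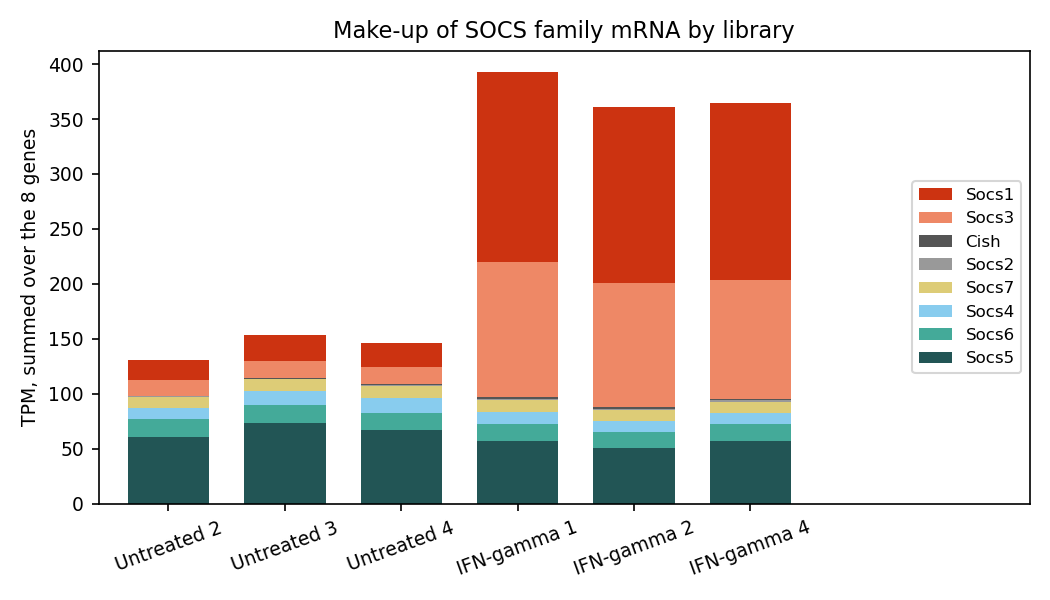
Make-up of the summed SOCS family TPM in each library (stacked bars from 0, y axis in TPM; 1 bar per library, 1 colour per gene). The treated bars reach 360.9 to 392.6 TPM against 130.8 to 153.5 TPM in controls, and Socs1 and Socs3 fill 74.0% to 75.6% of them.

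The other brakes on the pathway were taken from a list of 14 genes, all of which were tested. Of these 4 rose, 3 fell and 7 did not pass the test, with a median log2 change of 0.08 beside 0.01 over all genes. Over all genes tested 19.9% rose and 18.1% fell. Usp18, a protease that removes ISG15 and shuts down the type I interferon receptor, stood at 0.585, 0.107 and 0.686 CPM in controls and at 12.01, 12.4 and 11.9 CPM in treated libraries. The groups lay far apart, with totals of 26 and 644 counts (depth-scaled ratio 26.4, exact 95% interval 17.8 to 40.7) and an edgeR quasi-likelihood adjusted p of 1.36e-13. Cish stood at 0.691, 0.639 and 1.06 CPM in controls and at 2.84, 2.86 and 1.88 CPM in treated libraries, which did not overlap. Its totals of 45 and 135 counts gave a depth-scaled ratio of 3.19 (2.26 to 4.58), with an edgeR quasi-likelihood adjusted p of 1.82e-05. A pseudogene and an antisense gene overlap Cish, and since the sources used here do not say whether counting used strand, reads from these genes cannot be told apart.

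The phosphatase genes Ptpn6 (SHP-1) and Ptpn1 (PTP1B, which acts on JAK2 and TYK2) rose by small amounts, 0.36 ± 0.061 and 0.20 ± 0.030 on the log2 scale (SE, n = 3 per group), while the log2 change of Ptpn11 (SHP-2) was 0.02 and not called. Pdlim2, which targets STAT proteins for degradation in the nucleus, fell from 54.6 ± 3.24 to 28.9 ± 1.35 CPM (SD, n = 3 per group; edgeR quasi-likelihood adjusted p = 2.76e-10). Sh2b3, the adaptor LNK that restrains JAK2, fell from 91.7 ± 1.63 to 65.0 ± 1.84 CPM (1.59e-07). Trim27, a ubiquitin ligase whose counts were not all whole, fell from 107 ± 4.94 to 84.1 ± 3.03 CPM (3.48e-05). All 3 had no control library below a treated one. Trim27 counts as a brake by the list alone, and its role here was not tested. Among the other PIAS genes, Pias2, Pias3 and Pias4 had log2 changes of −0.07, 0.13 and 0.06 and were not called, so only Pias1 of the 4 passed the test, without a test of the difference among them. The sign of Pias4 and of Ptpn11 flipped on total counts, and the Ptpn1 call was lost there (edgeR adjusted p = 0.0601, of 0.00116 to 0.0601 over 15 alternatives). The ligase genes Cbl (−0.10) and Cblb (0.21) and the STAT3-binding Ndufa13 (0.11) were not called.

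**Figure D4:**
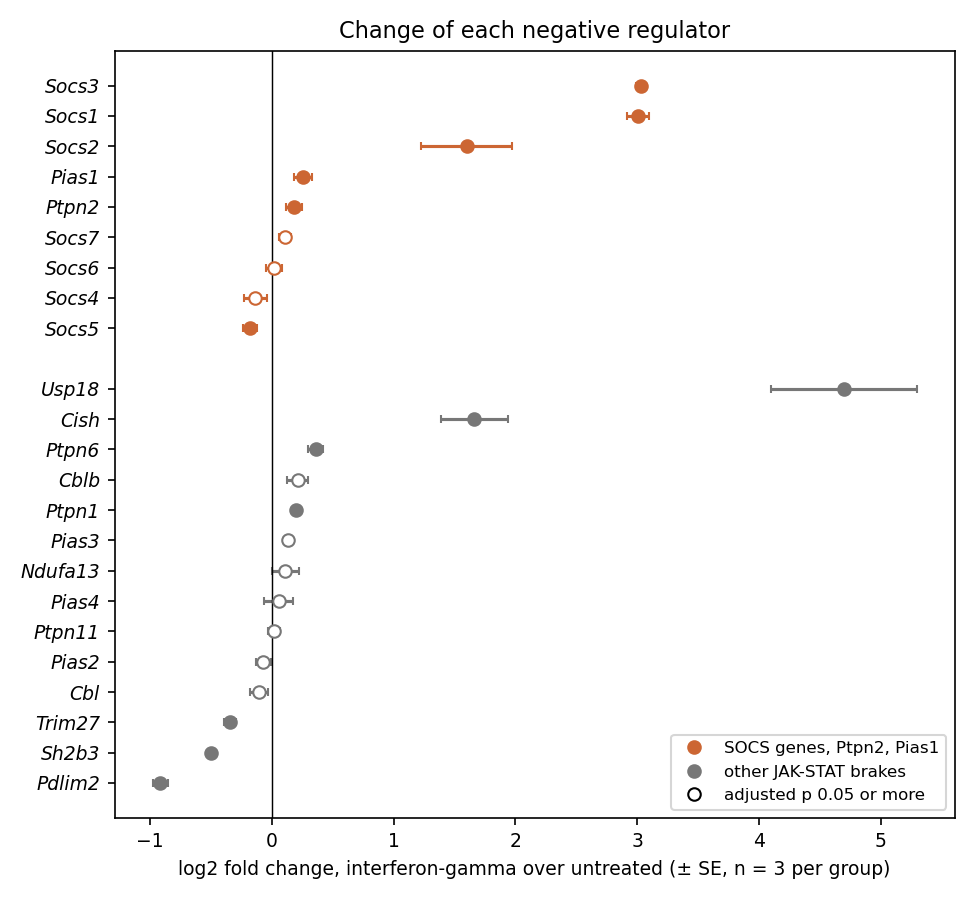
log2 change, interferon-gamma over control, of the 9 genes and the 14 other brakes (points, edgeR estimates, open where not called; bars, ± SE over 3 libraries per group; the line at 0 is no change). Usp18, Socs3 and Socs1 lie farthest to the right at 4.70, 3.03 and 3.01, and Pdlim2 farthest to the left at −0.92.

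The targets of the brakes were read from a list of 18 pathway genes, of which 17 were tested (all but Stat4), 11 rose and 3 fell, where 38.1% of all genes were called, with a median log2 change of 0.31 beside 0.01. Among the STAT and IRF genes, Stat2 rose by 3.76, Irf1 by 3.58, Irf9 by 2.98 and Stat3 by 2.47 on the log2 scale, the counts of Stat2 not being whole. Of the kinase genes, Jak3 rose by 0.85, Jak2 by 0.45 and Jak1 by 0.17. Of the receptor genes, Ifnar2, of the type I interferon receptor, rose by 1.11, and Ifngr1 and Ifngr2, the interferon-gamma receptor, fell by 0.24 and 0.33. The Jak1 rise was not called without control replicate 4 (edgeR adjusted p = 0.106), with upper-quartile scaling (0.0677) or on total counts (0.117). Over 15 alternatives its adjusted p ran from 0.00638 to 0.117. The fall of Tyk2, by 0.24, was not called without control replicate 2 (0.0765) or treated replicate 4 (0.123). With upper-quartile scaling and on total counts, the pathway genes that rose numbered 9 and those that fell 4.

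Ratios within a library show how far a brake moved against another gene, at the level of transcripts. Of 10 ratios, 8 had groups that did not overlap. Each of these was at the smallest two-sided exact permutation p of 0.1 that 3 against 3 allows (Benjamini-Hochberg adjusted 0.125), so none could pass 0.05. The changes of the single genes were known beforehand, so this separation mostly restates them. Ratios of other gene pairs were not compared. Socs1 over Jak2 was 0.484, 0.56 and 0.551 in controls and 3.23, 3.36 and 3.05 in treated libraries, a 6.05-fold difference in geometric means. Socs1 over Ifngr1 went from a mean of 0.365 to 3.59, and Socs1 over Tyk2 from 2.45 to 24.3.

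Socs3 over Il6st, the gene of gp130, was 0.317, 0.313 and 0.323 in controls and 2.03, 2.12 and 2.13 in treated libraries. All treated libraries lay above the controls, 6.58-fold in the geometric mean. Against the oncostatin M receptor gene Osmr, which itself rose, the ratio of Socs3 went only from a mean of 4.22 to 5.88. Socs3 over Stat3 went from a mean of 0.621 to 0.914. Ptpn2 over Stat3 was 2.73, 2.41 and 2.64 in controls and 0.482, 0.548 and 0.615 in treated libraries. Ptpn2 thus went from more than 1 transcript for each Stat3 transcript to fewer than 1, while Ptpn2 over Jak1 overlapped between the groups, at means of 0.778 and 0.805 (exact permutation p = 0.5).

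**Figure D5:**
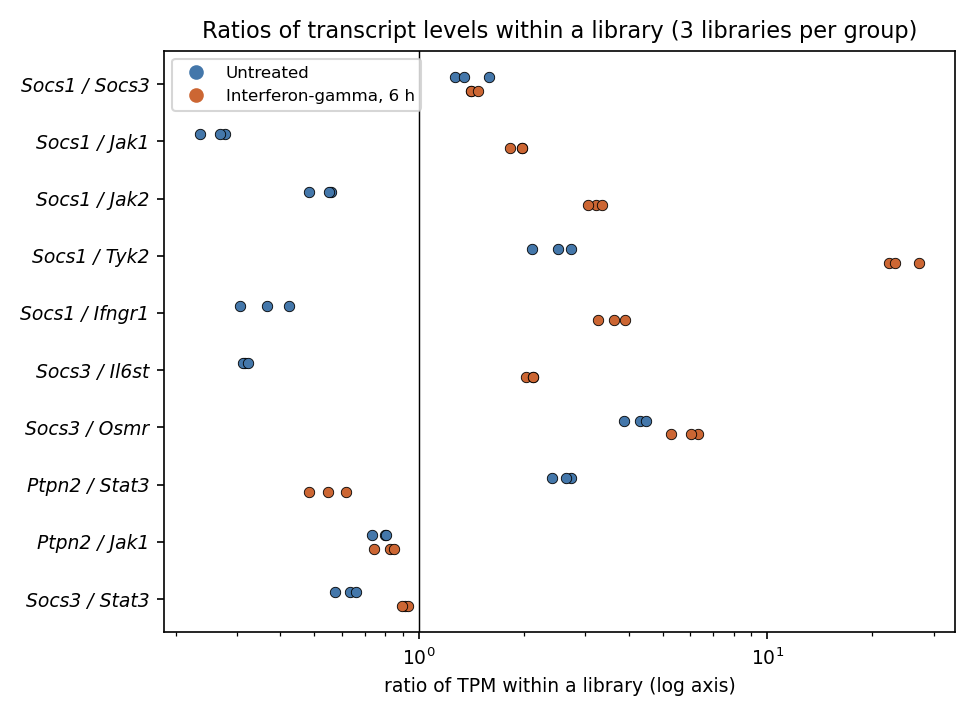
Ratios of TPM between a brake and another gene in each library (x axis, log scale; points are libraries, 3 per group; the line marks a ratio of 1). Ratios of Socs1 and Socs3 to kinases and receptors are higher in treated libraries, Ptpn2 over Stat3 is lower, and Socs1 over Socs3 and Ptpn2 over Jak1 overlap.

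The receptors and adaptors that SOCS proteins restrain were a list of 16 genes, of which 14 had a row and 12 were tested. After interferon-gamma 5 rose (Osmr, Igf1r, Il4ra, Il6st and Insr) and 4 fell (Egfr, Ghr, Irs1 and Irs2), where 19.9% of all genes rose and 18.1% fell, with a median log2 change of 0.04 beside 0.01. Osmr moved most, from 10.1 ± 0.512 to 59.0 ± 3.23 CPM (SD, n = 3 per group; edgeR quasi-likelihood adjusted p = 3.34e-17). Egfr, the receptor that SOCS4 and SOCS5 are described to act on, went from 65.7 ± 2.04 to 39.3 ± 2.28 CPM (2.66e-09), and Ghr, the growth hormone receptor that SOCS2 restrains, from 27.4 ± 1.59 to 19.5 ± 1.43 CPM (2.61e-05). Insr, Irs2 and Il6st were named after their values were seen, to complete the count. Insr was not called without control replicate 2 (edgeR adjusted p = 0.116) or treated replicate 1 (0.0881). It also lost the call with upper-quartile scaling (0.057) or total counts (0.0979), within 0.00569 to 0.116 over 15 alternatives.

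The ubiquitin ligase that SOCS boxes recruit is built from elongins B and C, a cullin and a RING protein, and was followed as a list of 10 genes. Of these 4 rose and 1 fell, where 38.1% of all genes were called (19.9% risen, 18.1% fallen), with a median log2 change of 0.08 beside 0.01. Cul2, one of the cullins, went from 68.6 ± 3.05 to 101 ± 5.59 CPM (SD, n = 3 per group; edgeR quasi-likelihood adjusted p = 9.37e-08), and Uba3, of the NEDD8 enzyme that activates cullins, rose by 0.28 on the log2 scale. Cul5, the cullin most often paired with SOCS boxes and named here after its value was seen, had a log2 change of −0.11 that was not called, though it was without treated replicate 4 (adjusted p = 0.0146) and with upper-quartile scaling (0.0436) or total counts (0.0284). The rises of the elongin genes Elob (0.20) and Eloc (0.19) were small. Elob lost its call without control replicate 3 (0.118), control replicate 4 (0.183), treated replicate 2 (0.102) or treated replicate 4 (0.0793). The Elob call was also lost with upper-quartile scaling (0.0928) or total counts (0.114). Eloc lost its call without control replicate 3 (0.0589), control replicate 4 (0.104) or treated replicate 4 (0.105), and with upper-quartile scaling (0.0858) or total counts (0.128). The fall of the RING gene Rnf7 (−0.15; adjusted p = 0.0491) was lost without control replicate 2 (0.192) or treated replicate 1 (0.0863), 2 (0.0518) or 4 (0.104). All of these adjusted p-values are from edgeR's quasi-likelihood test.

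The SUMO conjugation genes that work with PIAS proteins were a list of 9. Of these 0 passed edgeR's quasi-likelihood test in either direction, where 38.1% of all genes tested were called. DESeq2 and limma-voom also called 0 of the 9. Over all genes DESeq2 called 1931 risen and 1823 fallen, and limma-voom 2263 and 2055. Of the 9, 1 had an unadjusted edgeR p under 0.05, beside 5192 of the 11423 genes tested. The smallest adjusted p was 0.0519 for Sumo2, at a log2 change of 0.14, and Sumo2 was called without treated replicate 1 (0.0399). The median log2 change of the list was −0.02. Of 12 textbook STAT target genes that are not brakes, 10 rose, 1 fell and 1 was not called, where 19.9% of all genes rose. Their median log2 change was 4.47 beside 0.01. The list was chosen with earlier results of these data known, so its count describes these genes and is not independent evidence. Irf1 is counted here and among the pathway genes.

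Genes whose pattern was most like that of Socs1, Socs3 and Socs2, the members that were called and moved at least 2-fold, were ranked by the Euclidean distance of log2 CPM from the control mean over the 6 libraries. Closest to Socs1 were Herc6 (0.197), Tmem271 (0.222), Ifi204 (0.242, with counts that were not whole), Parp12 (0.252) and Irf9 (0.265). Closest to Socs3 were Parp12 (0.171), Tnfrsf14 (0.203, with counts that were not whole), Herc6 (0.211), Wars (0.256) and Nod1 (0.268). Parp12 and Herc6 stood on both lists. Closest to Socs2 were Tacr2 (0.483), Map3k8 (0.52), March3 (0.547), Soga3 (0.569) and Ctso (0.597), all at larger distances.

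The 9 genes differ in structure in ways the choice of symbols did not use. In GENCODE, the whole coding sequence lies in 1 exon in Socs1 (212 residues), Socs3 (225), Socs4 (436), Socs5 (536) and Socs6 (533), in 2 exons in Socs2 (198), and in 9 in Socs7 (579), 10 in Ptpn2 (382) and 14 in Pias1 (651). The 3 that moved at least 2-fold, Socs1, Socs2 and Socs3, are the 3 with the shortest proteins, and the SOCS genes with long proteins had smaller changes. This pattern was seen after the changes were known, and a link between length and change was not tested. In the deposited annotation the 7 Socs genes carry both a SOCS box and an SH2 term, all 9 carry the JAK-STAT pathway term, 4 (Socs1, Socs2, Socs3 and Ptpn2) carry a term for negative regulation of JAK-STAT signalling, and Socs1 and Ptpn2 also carry an interferon-gamma term.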

How the data were processed

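RNA from 3 control and 3 interferon-gamma samples was made into DNBSEQ libraries, per the labels' protocols. Per the submitters' processing notes, the tools were HISAT and HISAT2 and the builds mm10 and GRCm38.p6, with no roles stated. The sources used here do not name the counting program. Every sample had 1 deposited table of 14701 genes with estimated counts, TPM and FPKM per the file headers. FPKM values, deposited beside the others, were not used. TPM values, deposited by the authors, summed to 999811 to 1000000 per library, and 673 genes stood at 0 in all treated libraries while 0 stood at 0 in all controls. The tables may therefore hold only genes detected in controls, which no source used here states. A gene seen only after treatment would then have no row and would be missing from the shares of risen genes.

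Estimated counts were rounded and tested with edgeR 4.0.16 (R 4.3.3): filterByExpr with a minimum count of 10, TMM factors of 0.9717 to 1.033, glmQLFit with robust=TRUE and glmQLFTest over 11423 genes, with Benjamini-Hochberg adjustment and a threshold of 0.05. CPM used effective library sizes. Standard errors come from the replicates' log2 CPM with a prior count of 2, which draws low values together, and 95% intervals of folds from limma 3.58.1. Alternatives were DESeq2 1.42.0, limma-voom, limma on log2 TPM with a pseudocount of 1 or 0.1, and other scalings and filters. Ratios were compared by two-sided exact permutation tests (scipy 1.17.1). The test was tested on simulated data. Promoter sequences and starts are from RefSeq tables of GRCm38.p6, and gene structures from GENCODE.

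The members, the gene lists and the tests were chosen with earlier results of these data known. Genes named in the text are the 9 members, all 14 other brakes, the 6 or fewer with the lowest adjusted p of each further list, and the 5 genes most like each member called with at least a 2-fold change. A gene of the pathway list is counted but not reported here by name.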

Additional observations from a re-analysis of the deposited data

How the results depend on the processing

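Over 18 alternatives, the 9 members gave 162 pairs of gene and setting, of which 138 kept direction and call, 14 lost the call and 10 changed sign; the cause was not tested. The members that rose numbered 3 in each of the 3 fits on TPM and 4 to 5 with a library left out. The members that fell numbered 0 to 1 with a library left out. Ligase genes that rose numbered 2 with upper-quartile scaling and on total counts, and 2 to 5 with a library left out. Ligase genes that fell numbered 3 with those scalings, 0 with DESeq2, limma-voom or robust=FALSE, and 0 to 1 with a library left out. Over all genes, rises numbered 2278 with TMM, 1775 with upper-quartile scaling and 1644 on total counts. Falls over all genes numbered 2069, 2823 and 3124 in the same order, so the whole table shifted in the same direction. SUMO genes that rose numbered 1 when 1 CPM was required in 3 samples, 1 with robust=FALSE and 0 to 2 with a library left out, and SUMO genes that fell numbered 2 on total counts. Changes of sign were small: Socs6 was −0.037 (log2) with upper-quartile scaling, −0.055 on total counts, −0.093 and −0.098 on TPM with a pseudocount of 1 and 0.1, −0.093 on TPM with no filter, and −0.035 to 0.058 with a library left out. Socs7 was −0.002 in the 3 TPM fits. Pias4 was −0.015 on total counts and −0.028 to 0.157 with a library left out. Ptpn11 was −0.035 with upper-quartile scaling, −0.053 on total counts and −0.024 to 0.052 with a library left out. Where a library is left out, 2 libraries of that group remain. Replicate numbers 2 and 4 occur in both groups. Their deviations correlated at 0.128 and −0.09, within −0.146 to 0.161 for other numbers. So few pairs cannot show whether an equal number means a shared culture or batch. With the replicate block, calls over all genes went from 2278 risen and 2069 fallen to 2133 and 1793, members that fell from 1 to 0 (Socs5, adjusted p = 0.0637 by edgeR), ligase genes that fell to 0 and SUMO genes that rose to 2, with Pias4 at −0.052 and Ptpn11 at −0.043. Genes at a few counts per library, such as Socs2 and Cish, are limited by depth. The alternatives for the SUMO, receptor and STAT target lists and for single genes outside the members, and the counts of members called on TPM, were added after seeing the data.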
